A study of Mus musculus with 60 samples.

Results

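H4K8ac peaks called after simultaneous isolation were compared with those called after separate isolation, in hippocampal neurons of sedentary mice. The labels give 10 of the 60 samples of the series to these groups, and each of the 3 groups has 1 peak list. In SIT (simultaneous INTACT and TRAP) both hippocampi of a mouse went into 1 tube with cycloheximide, which holds ribosomes on their mRNA, and gave nuclei and ribosome-bound RNA together (4 labelled samples). In the separate isolation, nuclei came from the left hippocampus alone (3 labelled samples) or the right hippocampus alone (3 labelled samples), and the other hippocampus of the mouse went to RNA. Left and right lists therefore came from different mice, and side, animal and list cannot be told apart. How many of the labelled libraries entered each list is not known. The legends of the study give fewer sedentary mice for simultaneous isolation than the labels do, and some sedentary samples were left out of its RNA analysis as outliers.

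All mice were Emx1-NuTRAP, sedentary from postnatal day 21 to 41, in standard cages with no running wheel. The Emx1-Cre allele switches on a tag on nuclei and a tag on ribosomes in Emx1-expressing cells, which in the hippocampus are mainly excitatory neurons. Emx1 is also active in forebrain progenitors, so that some glia of that lineage can carry the tag. The study set the isolations side by side to learn whether taking RNA and nuclei from the same homogenate alters the chromatin profile.

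H4K8ac is acetylation of lysine 8 of histone H4. Acetylation removes a positive charge from the histone tail and is read by bromodomain proteins, and the mark lies at promoters and enhancers of genes in use. In the hippocampus it has been studied for its part in memory. CUT&RUN-seq maps such a mark by letting an antibody guide a nuclease that cuts and frees the DNA beneath it.

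The SIT list held 30358 peaks. The left list held 36425 and the right list 25159, and merging the intervals that shared at least 1 bp gave 43772 union regions. Of these, 15152 held peaks of both hemispheres, 19589 held left peaks alone and 9031 right peaks alone. Each list is the authors' pooled list of its group, with no signal, count or p-value per peak, so the depth behind it is unknown and no difference between the isolations could be tested. Intervals given with shares are 95% Wilson intervals and cover counting error only. As the only measure of spread within an isolation, the difference between the left and right lists is given beside each difference between SIT and the separate lists.

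Overlap was more frequent among SIT peaks than among union regions. A separate region lay under 19381 SIT peaks, 63.8% of them (interval 63.3 to 64.4), and 10977 SIT peaks had none. This share depends on what counts as overlap, and was 31.0% where each interval had to cover at least 50% of the other and 40.1% against regions of both hemispheres alone. Among union regions, 17732 held a SIT peak, 40.5% (interval 40.1 to 41.0). Regions of both hemispheres held a SIT peak in 67.6% of cases, left-alone regions in 22.2% and right-alone regions in 34.9%. Where each interval had to cover at least 50% of the other, a SIT peak lay in 21.5% of union regions and in 35% of those of both hemispheres. Promoters made up a smaller share of the SIT list than of either separate list. Among promoter regions of both hemispheres, the CpG-rich ones held a SIT peak least often. The genes that the SIT list lacked included Slc17a7, Dlg4, Sv2a and Cplx1, which act at the glutamate synapse or in transmitter release.

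Printed here are 7 loci that show what each side found. Each sequence is the 300 bp without untranslated exon nearest the midpoint of the interval, on the forward strand of GRCm38 (mm10) as read from the RefSeq genome, with each CpG dinucleotide in capitals, since the share of separate promoter regions with a SIT peak differed with CpG density. Slc17a7 encodes VGLUT1, the transporter that loads glutamate into synaptic vesicles. Its both-hemisphere region at chr7:45164311-45167222 spans 2912 bp, lies 287 bp downstream of the assigned start site and held no SIT peak. Ndufa5, a subunit of respiratory complex I, and Cplx1, which binds the SNARE complex of synaptic vesicles, had both-hemisphere regions over their start sites and no SIT peak, at chr6:24526427-24528854 and chr5:108548916-108551325. Celf2, an RNA-binding splicing regulator, held the widest both-hemisphere region without a SIT peak, 10678 bp at chr2:7219830-7230507 in a first intron.
Slc17a7, window chr7:45165617-45165916, 9 CpG: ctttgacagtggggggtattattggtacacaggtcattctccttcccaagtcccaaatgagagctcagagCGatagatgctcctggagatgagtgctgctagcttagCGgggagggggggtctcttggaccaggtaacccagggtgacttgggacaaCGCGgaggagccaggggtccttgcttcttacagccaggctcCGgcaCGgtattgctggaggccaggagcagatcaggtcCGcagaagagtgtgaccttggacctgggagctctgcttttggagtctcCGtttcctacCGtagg
Ndufa5, window chr6:24527160-24527459, 19 CpG: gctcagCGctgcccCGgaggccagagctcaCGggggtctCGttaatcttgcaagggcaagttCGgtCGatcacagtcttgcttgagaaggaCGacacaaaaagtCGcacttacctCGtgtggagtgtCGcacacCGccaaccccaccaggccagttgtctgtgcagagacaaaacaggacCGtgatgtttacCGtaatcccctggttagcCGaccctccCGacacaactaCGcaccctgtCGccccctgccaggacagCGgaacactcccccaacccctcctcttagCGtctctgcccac
Cplx1, window chr5:108550028-108550327, 20 CpG: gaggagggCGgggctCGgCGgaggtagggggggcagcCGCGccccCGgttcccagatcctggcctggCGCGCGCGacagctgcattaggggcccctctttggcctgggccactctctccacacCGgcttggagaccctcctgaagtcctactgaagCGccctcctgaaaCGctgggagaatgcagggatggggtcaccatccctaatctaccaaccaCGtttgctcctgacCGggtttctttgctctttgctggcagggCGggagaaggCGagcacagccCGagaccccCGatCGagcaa
Celf2, window chr2:7225019-7225318, 2 CpG: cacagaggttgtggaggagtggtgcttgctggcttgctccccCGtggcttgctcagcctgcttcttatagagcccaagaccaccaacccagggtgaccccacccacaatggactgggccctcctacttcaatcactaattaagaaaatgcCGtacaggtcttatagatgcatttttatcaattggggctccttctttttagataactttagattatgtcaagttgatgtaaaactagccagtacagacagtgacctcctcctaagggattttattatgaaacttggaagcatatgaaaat

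On the other side, the widest SIT peak without a separate region lay over an exon at Syt1, the calcium sensor of transmitter release, 4341 bp at chr10:108640129-108644469. At Pi15, a peptidase inhibitor gene, a SIT peak of 3950 bp at chr1:17599047-17602996 covered the start site with no separate region. Bdnf, a neurotrophin gene induced by activity, is shown as a locus found by both isolations, with a SIT peak of 4769 bp over a start site at chr2:109672587-109677355. The Pi15 window held no CpG, whereas the Cplx1 window held 20.
Syt1, window chr10:108642150-108642449, 8 CpG: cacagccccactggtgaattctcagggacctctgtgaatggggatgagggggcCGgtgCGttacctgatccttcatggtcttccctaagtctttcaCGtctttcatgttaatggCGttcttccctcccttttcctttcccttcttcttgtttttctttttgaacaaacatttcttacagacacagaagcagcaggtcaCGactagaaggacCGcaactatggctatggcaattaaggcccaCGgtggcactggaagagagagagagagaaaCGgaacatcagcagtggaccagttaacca
Pi15, window chr1:17600872-17601171: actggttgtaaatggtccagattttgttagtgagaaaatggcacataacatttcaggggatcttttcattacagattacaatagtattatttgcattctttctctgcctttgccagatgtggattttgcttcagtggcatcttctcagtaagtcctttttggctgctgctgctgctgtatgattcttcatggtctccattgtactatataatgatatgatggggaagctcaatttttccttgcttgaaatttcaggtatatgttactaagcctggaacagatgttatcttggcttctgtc
Bdnf, window chr2:109674400-109674699, 12 CpG: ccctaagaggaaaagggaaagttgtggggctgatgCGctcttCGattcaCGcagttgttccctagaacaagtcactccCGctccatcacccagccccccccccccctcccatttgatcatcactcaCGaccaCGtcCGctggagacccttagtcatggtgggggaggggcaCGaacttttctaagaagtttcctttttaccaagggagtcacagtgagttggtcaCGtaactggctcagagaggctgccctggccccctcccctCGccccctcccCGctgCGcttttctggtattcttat

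By bases covered, the 2 separate lists overlapped each other more than either overlapped SIT. SIT shared 23.4% of the bases covered by either list with left and 26.6% with right, against 30.6% between left and right. With every list cut to its 25159 widest peaks, an alternative chosen after seeing the data, these shares were 23.0%, 25.8% and 30.8%. At that length 45.8% of SIT peaks overlapped a left peak and 50.8% a right peak, whereas 54.5% of left peaks overlapped a right peak. The yardstick here is 1 pair of hemispheres. The SIT list covered 46.4 Mb, left 65.9 Mb, right 56.1 Mb and the union 93.4 Mb.

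Each list was then scored on the regions that the other 2 lists shared. SIT held a peak in 67.6% of the 15152 regions shared by left and right (interval 66.8 to 68.3), a share that fell to 35% with the stricter overlap, under which the other scores were not computed. Left held one in 78.0% of the 13234 regions shared by SIT and right, and right in 72.4% of the 14231 shared by SIT and left. SIT was lowest, but the step from right to SIT was smaller than that from left to right.

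Promoters were less frequent in the SIT list than in either separate list. Peaks annotated within 3 kb of a start site made up 19.3% of SIT peaks (interval 18.8 to 19.7), 24.3% of left peaks, 24.1% of right peaks and 23.8% of union regions. SIT minus left was -5.04 points and SIT minus right -4.84 points, while left minus right was 0.204 points. Most of this lay within 1 kb of the start site, at 14.3% for SIT, 18.6% for left and 19.7% for right. Among the annotation classes SIT stood furthest outside the range of the separate lists in promoters. Distal intergenic peaks made up 31.0% of SIT, 26.0% of left and 29.8% of right peaks, and introns 40.1%, 39.0% and 34.6%. Left minus right was -3.88 points for distal intergenic peaks and 4.37 points for introns, more in size than SIT differed from the nearer list. Exons made up 6.74%, 7.46% and 8.27%.

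**Figure D1:**
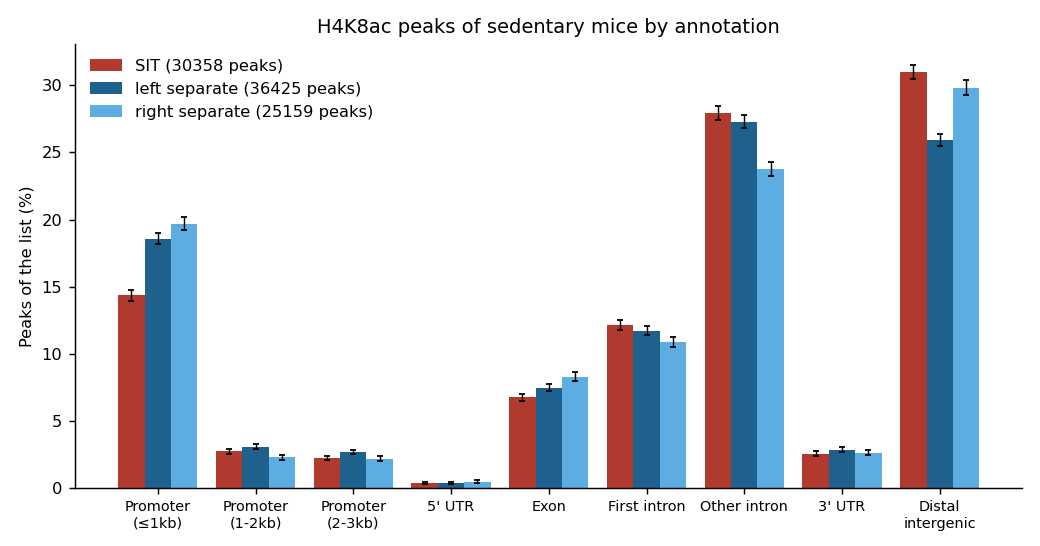
Share of peaks in each annotation class (y axis, % of the list) for the SIT, left separate and right separate lists, with 95% Wilson intervals as error bars. Promoters within 1 kb take 14.3% of SIT peaks against 18.6% and 19.7% in the separate lists, while the intron and distal intergenic classes differ more between left and right than between SIT and the nearer list.

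SIT peaks with no separate region were less often at promoters. Promoters made up 14.8% of the 10977 SIT peaks without overlap and 21.8% of the 19381 with overlap, a difference of -7.02 points. Introns other than the first rose from 26.0% of overlapping peaks to 31.3% of the others. By class, 74.8% of SIT peaks within 1 kb of a start site had a separate region, against 59.5% in introns other than the first and 63.0% in distal intergenic DNA. SIT peaks that covered a start site were found again most often, in 79.7% of 2702 cases, and those over 100 kb away least often, in 58.4% of 6699.

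Regions of both hemispheres gave the other order. Among the regions of both hemispheres, promoters made up 31.9% of the 4911 without a SIT peak and 25.3% of the 10241 with one. Over all union regions the shares were nearly level, at 24.1% without and 23.2% with a SIT peak, and within 1 kb they were 18.4% and 18.9%. Union regions that covered a start site held a SIT peak in 46.4% of 5547 cases, the highest share of the distance classes. Those 1 to 1000 bp from a start site had the lowest, 29.8% of 2580. SIT held a peak in 62.3% of these shared promoter regions (interval 60.8 to 63.8) and in 69.6% of the shared regions elsewhere (interval 68.7 to 70.4). The same score ran the opposite way for the other lists. Left held 81.8% of the promoter regions shared by SIT and right and 76.9% of the rest, and right held 74.5% of the promoter regions shared by SIT and left and 71.8% of the rest. Within each of 5 equal width classes of both-hemisphere regions, SIT held fewer of the promoter regions, from 44.6% against 50.9% in the narrowest to 87.6% against 89.4% in the widest.

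Above 1 CpG per 100 bp, the SIT share of these promoter regions fell from class to class. Promoter regions of both hemispheres with under 1 CpG per 100 bp held a SIT peak in 66.2% of 539 cases and those with 1 to 2 in 70.3% of 1434. The share was 61.8% of 1044 regions at 2 to 3 CpG, 53.7% of 944 at 3 to 5 and 37.1% of 194 at 5 or more (interval 30.6 to 44.1). Left fell from 83.1% to 65.0% and right from 76.5% to 59.1% over the same classes, and both still held 81.4% and 73.3% at 3 to 5 CpG. The class of 5 or more CpG was low in all 3 lists. It took a similar share of promoters on both sides, 468 of 5850 SIT promoter peaks and 823 of 10396 promoter regions of the union. Over all union promoter regions, a SIT peak lay in 32.4% under 1 CpG, 45.7% at 1 to 2, 47.1% at 2 to 3, 36.2% at 3 to 5 and 23.1% at 5 or more. Away from promoters, shared regions with 3 to 5 CpG held a SIT peak in 72.0% of 118 cases, close to the 70.9% at 1 to 2, and those with 5 or more in 35.7% of only 14 cases. Width differed with CpG density too. From the narrowest to the widest of 5 width classes, both-hemisphere regions with 2 or more CpG held a SIT peak in 45.4%, 59.1%, 62.1%, 69.2% and 81.1%. Those under 1 CpG stood at 48.7%, 55.0%, 64.0%, 74.7% and 89.6%, so the order was reversed in the second class. Promoters alone were not split by both. The Ndufa5 and Cplx1 regions printed above, with 3.54 and 3.57 CpG per 100 bp, belong to the class of 3 to 5.

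**Figure D2:**
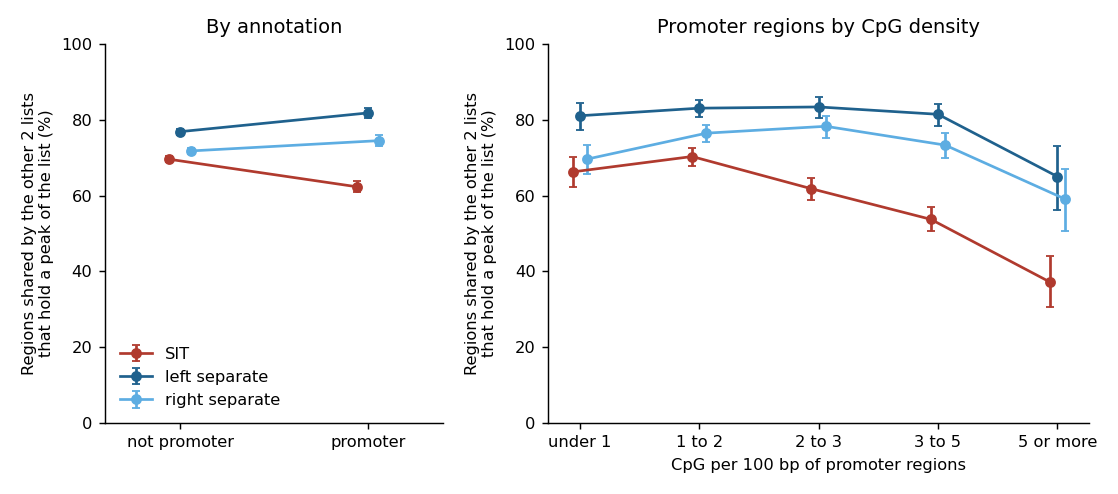
Share of the regions shared by 2 lists that hold a peak of the remaining list (y axis, %), by annotation (left panel) and, for promoter regions, by CpG per 100 bp (right panel), with 95% Wilson intervals. SIT is the list that holds fewer promoter than other regions (62.3% against 69.6%), and its share falls to 37.1% at 5 or more CpG, below 65.0% for left and 59.1% for right.

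Base composition moved with these classes. Median GC content was 43.0% in SIT peaks, 43.8% in left and 44.1% in right peaks, so that SIT was lower by more than the 2 hemispheres differed. SIT peaks without overlap had a median GC of 41.3% and those with overlap 43.9%. The share of SIT peaks with a separate region was 45.8% below 35% GC and 76.6% at 50 to 55% GC. Both-hemisphere regions without a SIT peak had 3 or more CpG per 100 bp in 12.2% of cases, against 6.53% of those with a SIT peak. Repeat-masked bases were similar, with a median of 16.5% of the interval in SIT peaks without overlap and 15.1% in those with overlap. How far sequence composition bears on which fragments entered each list was not tested.

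Short motifs were counted in 300 bp around each midpoint, on both strands. The SP1 core GGGCGG, which itself holds a CpG, occurred in 3.87% of SIT peaks without overlap, 6.73% of those with overlap, 8.56% of both-hemisphere regions with a SIT peak and 10% of those without. It occurred in 35.7% of all RefSeq promoters of the same length. AP-1 sites (TGACTCA) occurred in 5.48%, 6.0%, 5.71% and 6.29% of these classes in the same order and in 5.20% of promoters. The E-box CAGATG, a form bound by NEUROD-type bHLH factors, occurred in 23.0%, 24.0%, 23.5% and 24.3%, and in 17.2% of promoters. The full CRE TGACGTCA, which also holds a CpG, was rare, in 0.182%, 0.382%, 0.410% and 0.468%, and in 1.79% of promoters. Among the 4 classes of intervals, the SP1 core and the CRE were least frequent in SIT peaks without overlap, whose 95% intervals did not overlap those of the other classes. For AP-1 and the E-box, which hold no CpG, the intervals of these peaks overlapped those of other classes. Median CpG per 100 bp was 0.805 in SIT peaks without overlap and 1.06 in those with overlap. How far CpG density accounts for the motif counts was not tested.

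SIT peaks were the narrowest. Their median width was 1265 bp, with quartiles of 1036 and 1758 bp. Left peaks had a median of 1453 bp, right peaks 1880 bp and union regions 1729 bp, the last widened by merging. SIT was below both, yet left and right differed from each other by more than SIT differed from left. Peaks of 5 kb or more numbered 245 in SIT (0.807%), 772 in left (2.12%) and 797 in right (3.17%). The widest peak measured 18946 bp in SIT, 25489 bp in left and 35468 bp in right.

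Width went with overlap on both sides. The widest class of SIT peaks, 1940 bp and above, had a separate region in 91.6% of cases, and the fourth class (1404 to 1939 bp) in 70.8%. The middle class and the next narrower stood at 51.2% and 50.4%, and the narrowest, of 366 to 993 bp, was above both at 55.2%. Union regions rose steadily from 17.9% in the narrowest class to 76.6% in the widest, and both-hemisphere regions from 48.8% to 89.0%. A wider interval can meet another by its length alone, so these shares describe the lists and not how reliable a peak is. Of the overlapping SIT peaks in the narrowest class, 24.6% shared their union region with another SIT peak, against 20.1% in the middle class. Across all widths, 88.9% of the union regions with a SIT peak held 1, 9.36% held 2 and 1.69% held 3 or more, up to 7. The median width was 1150 bp for SIT peaks without overlap and 1420 bp for those with overlap.

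**Figure D3:**
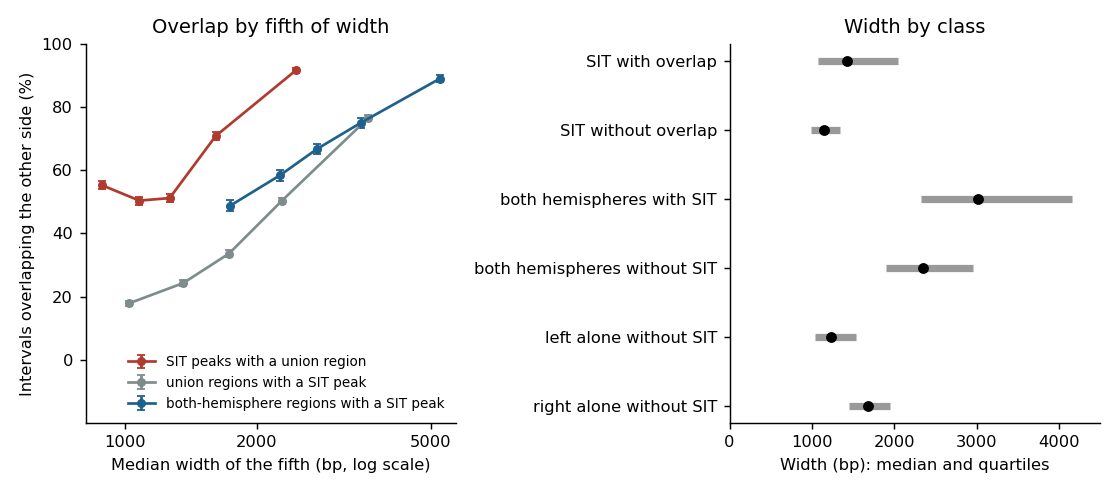
Left panel, share of intervals that overlap the other side (y axis, %) against the median width of 5 equal width classes (x axis, bp, log scale), with 95% Wilson intervals. Right panel, median width (points) and quartiles (bars) of 6 classes of intervals. The widest SIT peaks overlap in 91.6% of cases and the widest both-hemisphere regions in 89.0%, while SIT peaks without overlap have a median of 1150 bp.

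SIT peaks also lay further from start sites. The median absolute distance was 26634 bp in SIT, 20382 bp in left and 22563 bp in right. A start site lay inside 8.90% of SIT peaks, 11.9% of left and 14.6% of right peaks. Within SIT the median was 31216 bp for peaks without overlap and 24193 bp for those with overlap. Both-hemisphere regions without a SIT peak had the shortest distance, with a median of 15166 bp and a lower quartile of 398 bp. Upstream peaks made up 40.3% of SIT, 38.6% of left and 37.6% of right peaks. For SIT peaks without overlap the nearest union region was a median of 8163 bp away, within 1 kb for 14.7% of them and within 50 kb for 86.4%.

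Chromosomes differed in the balance between the lists. Chromosome 7 held 813 SIT, 1520 left and 757 right peaks, so left stood apart there and SIT was close to right. Only 28.4% of its union regions had a SIT peak, the lowest of the autosomes. Chromosome 16 had the lowest share of SIT peaks with a separate region among the autosomes, 49.8% of 978, and chromosome 11 the highest, 70.1% of 1392. The X chromosome was nearly empty in every list, with 127 SIT, 51 left and 110 right peaks.

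By gene symbol the lists were closer than by peak. Together they named 12302 genes, of which 7718 (62.7%) had a peak in both isolations. SIT alone named 951 (7.73% of the 12302), separate isolation alone 3633 (29.5%), and both hemispheres without SIT 1162 (9.45%). Against the left list alone, 1515 genes were in SIT alone and 3067 in left alone, and against the right list alone 2078 were in SIT alone and 1728 in right alone. Of the SIT genes, 89.0% were named by the separate side. Taken by list, 70.0% of left genes and 79.2% of right genes were in SIT, against 70.3% of left genes in right and 86.4% of right genes in left. Of the 7189 genes with a peak in both hemispheres, 83.8% were in SIT (interval 83.0 to 84.7). The number of peaks per gene had a Spearman correlation of 0.60 between SIT and left, 0.66 between SIT and right and 0.63 between left and right across the 12302 genes. These correlations share gene length and are a description only.

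Genes with 10 or more peaks were nearly all found by both isolations. SIT genes with 1 peak were on the separate side in 79.2% of 4061 cases, those with 2 in 94.2%, those with 3 to 4 in 99.0%, and all 646 with 10 or more. Right genes with 1 peak were in SIT in 63.8% of cases and in left in 75.9%. Left genes with 1 peak were in SIT in 49.8% and in right in 51.5%. Of the 951 genes named by SIT alone, 846 had 1 peak (89.0%), against 2117 of the 3633 named by separate isolation alone (58.3%). Separate genes with 2 peaks over both lists were in SIT in 61.1% of cases, those with 3 to 4 in 79.6% and those with 10 or more in 99.9%. A different symbol for the same interval played a small part, since 39 of the 951 had a peak that overlapped a union region. For promoter peaks the distance was wider, with 66.0% of the 3742 genes that had one in both hemispheres having one in SIT.

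The 6 genes with the widest coverage in all 3 lists had 33 to 125 peaks in each list. Celf2 (chr2:6539694-7509563) had 94 SIT, 125 left and 60 right peaks, which covered 149898, 252189 and 149694 bp. Tcf4, a bHLH transcription factor gene, had 60, 71 and 53 peaks covering 176019, 127096 and 220579 bp, so that SIT lay between left and right. Anks1b, a postsynaptic scaffold gene, had 59, 85 and 58 peaks. St6galnac3, a sialyltransferase gene, had 49, 47 and 40. Cdh11, a cadherin gene, had 53, 72 and 49, and Msra, a methionine sulfoxide reductase gene, 43, 37 and 33. SIT peaks of St6galnac3 and Msra were more numerous than those of both separate lists.

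Genes named by SIT alone with the widest summed peaks had 1 to 5 SIT peaks each. Usp14, a proteasome-associated deubiquitinase gene, had 5 SIT peaks of 5224 bp in all, 4 of them annotated as promoter. Ccer1 had 2 peaks (4695 bp), N6amt1, a methyltransferase gene, 3 (3937 bp) and Fam83f 2 (3847 bp). Acsbg1, an acyl-CoA synthetase gene, had 2 peaks of 3794 bp upstream of the gene. Rbm24, an RNA-binding protein gene, had 3 (3727 bp), Try4, a trypsin gene, 1 (3593 bp) and Usp35, another deubiquitinase gene, 3 (3395 bp). Usp35 had a SIT peak over a start site at chr7:97325585-97326512 that held 6.14 CpG per 100 bp. The Try4 peak lay at -43961 bp, where minus stands for upstream, so the symbol marks the nearest gene and not a promoter.

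Some of the widest genes named by both hemispheres and not by SIT had a promoter peak in each hemisphere. Nsg1, an endosomal protein gene of neurons, had left and right peaks over its start site with 6.15 and 6.13 CpG per 100 bp, besides an intronic pair of 6473 and 3141 bp. Cirbp, a cold-inducible RNA-binding protein gene, had 4 left and 3 right peaks. Celf3, a neuronal splicing regulator gene, had 3 left and 2 right peaks, all of them annotated as promoter, the widest of 4857 bp in left and 5532 bp in right. Fut10, a fucosyltransferase gene, had 2 and 3.

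For the remaining 4 the peaks were mostly far from the start site. C9orf72 had 6 left and 3 right peaks, 8682 and 8223 bp in all, and 1 of them, in left, lay at its promoter. Lrpap1, which encodes a chaperone of LDL-receptor family proteins, had 9 left and 2 right peaks, from -63543 to -23641 bp. Mrpl35, a mitochondrial ribosomal protein gene, had 7 and 2, and Foxk1, a forkhead transcription factor gene, 4 and 4. Of the 1162 genes in both hemispheres and not in SIT, 61.2% had a promoter peak in both.

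The lists were checked against markers of the labelled neurons and of other cells. Among protein-coding genes of RefSeq, 33.4% had a SIT peak, 40.0% a left peak and 32.1% a right peak, which is the background for the counts that follow. For promoter peaks the background was 18.0% in SIT, 26.7% in left and 19.7% in right, so the left list held more promoter genes in general. Of 12 excitatory neuron genes, 11 had a SIT peak and 12 a left and a right peak. Emx1, the gene that drives Cre here, had 1 SIT peak of 1155 bp and 3 peaks on each side. The missing gene was Slc17a7, with 2 left peaks (3793 bp) and 1 right peak (1251 bp). Of 12 dentate granule cell genes 11, 10 and 11 had a peak in SIT, left and right. Of 9 CA1 genes 5, 5 and 7 had one, and of 9 CA3 genes 7, 6 and 4.

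Other cell types were closer to the background, with 1 exception in the left list. Of 17 interneuron genes 5 had a SIT peak, 6 a left and 4 a right peak, and 9 had none in any list, among them Gad2, Slc32a1 and Pvalb. Lamp5 had 8 SIT, 9 left and 5 right peaks, with 2 at promoters in each list. Adarb2 had 6, 5 and 6 peaks and Dlx2 2, 3 and 2. Of 16 microglia genes 4, 7 and 5 had a peak, and 6 had none in any list, among them Cx3cr1, Tmem119 and Csf1r. P2ry12 had 4 SIT, 3 left and 1 right peaks, all at promoters, and Spi1 had 2, 1 and 1. Of 16 oligodendrocyte lineage genes 6, 4 and 4 had a peak, and 9 had none in any list, among them Olig1, Olig2 and Sox10. Mbp had 19 SIT, 17 left and 15 right peaks, with 4, 4 and 5 at promoters. Cspg4 and Ermn had 1 peak in each list, at a promoter for Cspg4. Of 14 endothelial and mural genes 5 had one in every list, none of them at a promoter. Astrocyte genes stood apart in left, with 10 of 14 against 5 in SIT and 4 in right, and 7 of them had a left promoter peak against 2 in SIT and 2 in right. The part of glial nuclei in the left list, and so in the separate union, was not tested.

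Members of these cell type lists that differed between the isolations, with both hemispheres alike, were few. Slc1a3, a glutamate transporter gene of astrocytes, had 2 left and 3 right peaks, Aldh1l1 1 and 1, and Siglech 2 and 3, the last from -36947 to -21712 bp. Genes in SIT alone included Acsbg1, Cpne7, Sst, Opalin and Trem2. Of these, all but Acsbg1 had 1 SIT peak, of 878 to 1106 bp. Sst encodes somatostatin, and its peak lay at -7896 bp.

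Synaptic genes had a peak in similar numbers in the 3 lists. Of 25 postsynaptic genes 19 had a SIT peak, 19 a left and 17 a right peak, and promoter peaks were found at 10, 14 and 10. Dlg4, which encodes the scaffold PSD-95, had a left promoter peak of 1000 bp and a right one of 2635 bp at another start site of the gene, and none in SIT. Homer2, also a scaffold gene, had 4 left and 3 right peaks. Nlgn3, a neuroligin gene, had 1 SIT peak of 1038 bp and no separate peak.

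Of 21 transmitter release genes 14, 15 and 13 had a peak, and 9, 13 and 11 a promoter peak. Sv2a, a synaptic vesicle protein gene, had a left peak of 3550 bp and a right peak of 1996 bp over its start site. Cplx1 had 1010 and 2410 bp over its start site.

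Immediate early genes, which neurons switch on within minutes of activity, were above the background in every list. Of 24, 19 had a SIT peak, 21 a left and 18 a right peak, and 3 had none in any list. Dusp1, a MAP kinase phosphatase gene, and Per1, a clock gene, had a promoter peak in each hemisphere and none in SIT. At both genes the left and right peaks did not overlap each other. Bdnf had 17 SIT, 15 left and 15 right peaks covering 28725, 39740 and 32195 bp, with 5, 4 and 7 at promoters. Nr4a1, an orphan nuclear receptor gene, had 3 SIT, 3 left and 2 right peaks, and a promoter peak in left alone.

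Of 11 heat shock genes 2 had a peak in SIT, 6 in left and 4 in right, with no SIT promoter peak against 3 and 2. Hspa8, the constitutive HSP70 chaperone gene, had a left promoter peak of 632 bp and a right one of 1869 bp. Hsp90ab1 had 1016 and 1535 bp upstream of its start site. Cytosolic ribosomal protein genes had a SIT peak in 23 of 84 cases, a left peak in 40 and a right peak in 22. Their promoter peaks numbered 11 in SIT, 32 in left and 15 in right. Oxidative phosphorylation genes had 26 of 85 in SIT, 41 in left and 21 in right, with promoter peaks at 18, 32 and 15.

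For both of these housekeeping groups SIT was close to right, and left was the list that differed. Rps9 and Rpl14 had promoter peaks in both hemispheres and none in SIT, of 1567 and 1931 bp and of 1338 and 2037 bp. Ndufa5 (2197 and 2428 bp) and Ndufb7 (1642 and 1485 bp) had them as well. Rps15a shows the limit of such counts, since its left and right peaks lay 191804 to 257468 bp from its start site. Among silent families, no list had a peak at any of 39 Hox genes. Olfactory receptors had a peak in 22 of 1106 cases in SIT, 33 in left and 24 in right, and vomeronasal receptors in 5, 6 and 6 of 353.

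**Figure D4:**
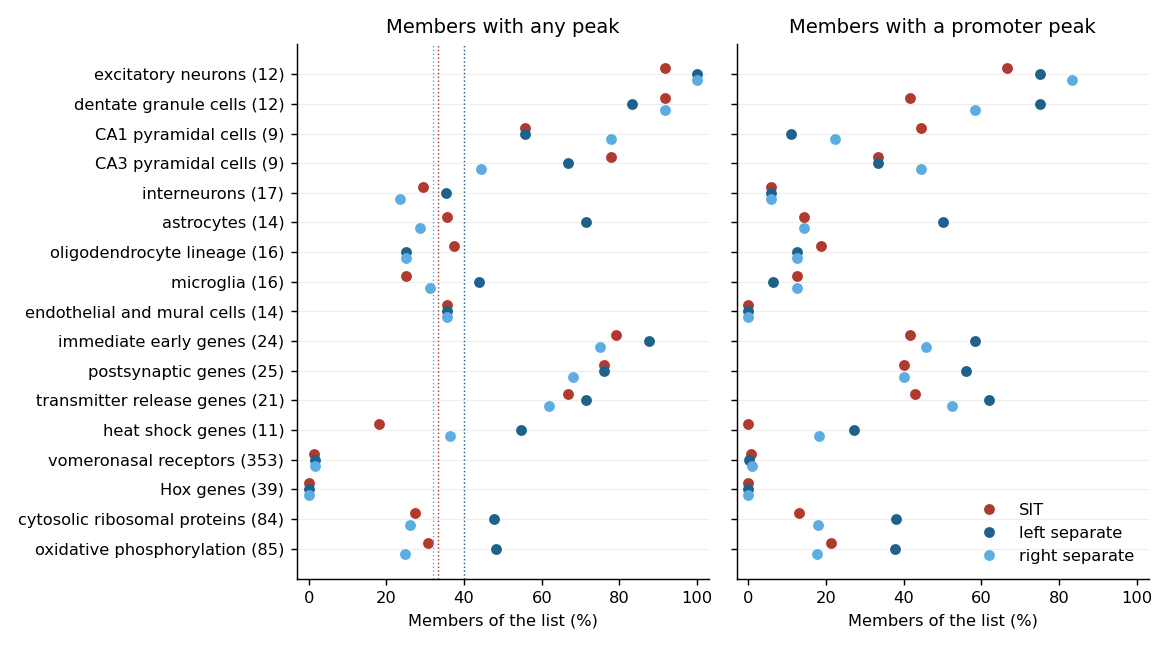
Share of the members of each gene list (rows, number of members in parentheses, olfactory receptors not drawn) with any peak (left panel) or with a promoter peak (right panel) in the SIT, left and right lists (x axis, %). Dotted lines in the left panel give the share of all protein-coding genes with a peak, 33.4% in SIT, 40.0% in left and 32.1% in right. For any peak, the excitatory, dentate, CA1 and CA3 lists lie to the right of these lines in SIT, left and right. The left list stands apart for astrocyte, ribosomal protein and oxidative phosphorylation genes.

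Genes that the study names were looked up in the same way. Prox1, the transcription factor gene of dentate granule cells, had 1 SIT peak at -103701 bp, while left had 3 peaks, 2 of them at promoters, and right 3. No 2 of these 7 intervals overlapped. Dusp5 had 1 SIT peak of 2048 bp, overlapped by a right peak of 3832 bp, and 3 left peaks. Kptn had no SIT peak, and its left peak of 4747 bp and right peak of 2321 bp both covered the start site, the right one at chr7:16118819-16121139. Sntb2, a syntrophin gene, had 2 SIT, 5 left and 3 right peaks.

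Lists that the comparison did not use gave a further view of the same intervals. In exercised mice, which had a running wheel over the same days, the SIT list held 38136 peaks (80.3 Mb) and the union of the separate lists 19832 regions (41.5 Mb). The authors left out some exercised H4K8ac libraries for a high false discovery rate, more of them separate than SIT. SIT peaks with a sedentary separate region were found again in the exercised SIT list in 77.5% of cases and in the exercised separate union in 55.2%. SIT peaks without one were found again in 26.3% and 10.8%, or in 12.6% and 5.38% where each interval had to cover at least 50% of the other. With the exercised SIT list cut to its 19832 widest peaks, which changes both its number and its widths, 26.3% became 13.7%.

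Of the 10977 SIT peaks without overlap, 68.8% met neither exercised list. SIT lists alone found 2242 of them in both conditions (20.4%), at a median width of 1163 bp, and 16.7% of these were promoters. On the separate side, both-hemisphere regions without a SIT peak in sedentary mice met the exercised SIT list in 73.4% of 4911 cases and the exercised separate union in 45.6%. For both-hemisphere regions with a SIT peak these shares were 91.0% and 73.0%. Left-alone and right-alone regions without a SIT peak met the exercised SIT list in 29.1% and 44.3%. Of the 4911, only 346 met the exercised separate union and neither SIT list.

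**Figure D5:**
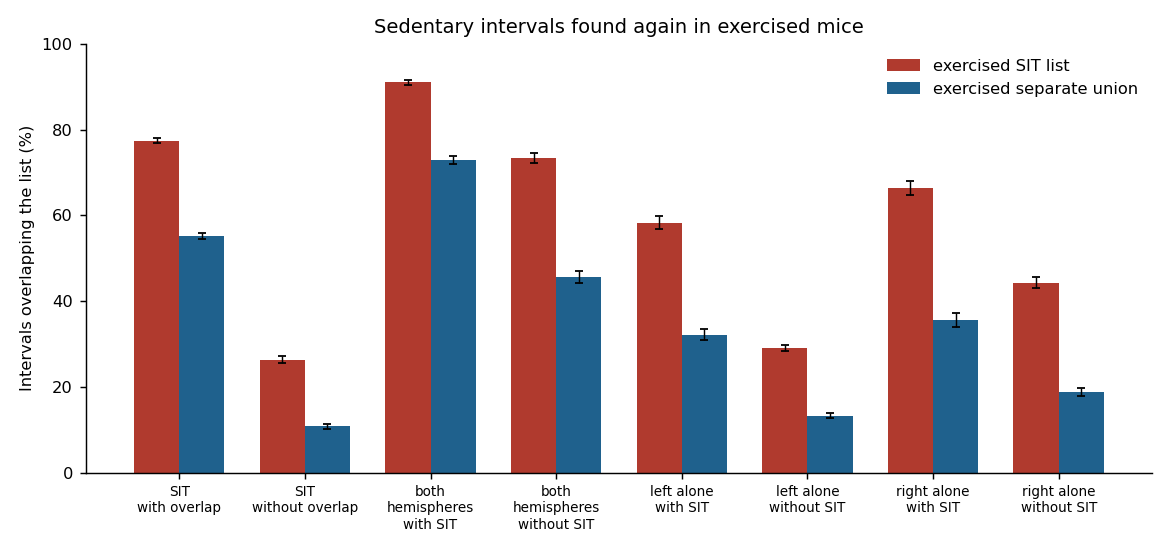
Share of sedentary intervals (y axis, %) that overlap the exercised SIT list or the exercised separate union, by class of interval (x axis), with 95% Wilson intervals. SIT peaks without overlap are found again least, in 26.3% and 10.8%, and both-hemisphere regions with a SIT peak most, in 91.0% and 73.0%.

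H3K27me3, a methylation laid down by Polycomb complexes at repressed genes, was measured in the same groups and hardly met H4K8ac. The sedentary SIT H3K27me3 list overlapped 48 of the 10977 SIT H4K8ac peaks without overlap (0.437%, interval 0.330 to 0.579) and 29 of the 19381 with overlap (0.150%, interval 0.104 to 0.215). With the union of the separate H3K27me3 lists the shares were 0.957% and 0.304%. Both-hemisphere regions met the SIT H3K27me3 list in 0.244% of cases without a SIT H4K8ac peak and 0.254% with one.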

How the data were processed

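H4K8ac was mapped by CUT&RUN-seq in 10 sedentary samples. The authors aligned reads with Bowtie2 2.4.1, called peaks with SEACR (stringent, 0.01) and annotated them on mm10 with ChIPseeker 1.8.6, taking 3 kb on either side of a start site as promoter and the nearest gene as the gene of a peak. The deposited lists give positions, widths in bp, annotation, distance to the start site and symbols, 1 list per group. How libraries of a group were combined was not given in the sources used here, and reads per peak were not used here.

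Lists were compared in Python 3.11.15 (pandas 2.3.3). Left and right peaks sharing at least 1 bp were merged, and a union region took the annotation of its widest peak. Base composition was read from the RefSeq genome of GRCm38 and gene coordinates from GENCODE M21. Interval functions were tested on simulated data. Genes were named by summed width (8 in SIT alone, 8 in both hemispheres alone, 6 in all lists), as the 4 widest unshared intervals of each side, as list members that differed between isolations with left and right alike (up to 4 a list), and as 6 genes of the study. Predicted genes were counted and not named, and a few other genes that the rule names are not reported here. Members, gene lists and rules were chosen with earlier results of these data known.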

Additional observations from a re-analysis of the deposited data

How the results depend on the processing

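Of 89 recomputed values, 43 stayed within the 95% interval of the reported value or, for gene counts and shares of bases, within 1.5 times of it, and 46 did not. No paired analysis was possible because the lists carry no samples. The cause of each shift was not tested beyond what the setting itself changes. The share of SIT peaks with a separate region, of union regions with a SIT peak and of both-hemisphere regions with a SIT peak was 31.0%, 21.5% and 35% with reciprocal overlap of 50%, 56.6%, 29.1% and 50.2% with the midpoint inside, and 69.2%, 45.6% and 70.5% with a gap of up to 1000 bp allowed. With the widest 50% of each list these were 61.1%, 38.0% and 65.0%, SIT peaks without minus with overlap differed by -4.98 points in promoter share, SIT over union width was 0.75, and 4864 genes were in both isolations.

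Against the left list alone, 51.7% of SIT peaks and 41.5% of left peaks overlapped, the width ratio was 0.871 and 1515 genes were in SIT alone. Against the right list alone these were 48.7%, 54.6%, 0.673 and 2078, with a promoter difference by overlap of -5.49 points and 1728 genes in right alone. Against both-hemisphere regions 40.1% of SIT peaks overlapped, SIT minus separate promoter share was -8.15 points, the difference by overlap -5.77 points, the width ratio 0.46 and the median distance 7071 bp longer in SIT. Without merging, the width ratio was 0.760. With both sides at equal numbers, 56.3% of SIT peaks and 49.9% of regions overlapped, the ratio was 0.596, and 1703 and 2244 genes were in SIT alone and separate alone.

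Promoter peaks alone left 3664 genes in both isolations. Asking for 2 peaks in a list gave 614 genes in SIT alone, 2034 in separate alone and 3994 in both. Counting genes of both hemispheres only gave 2642 in SIT alone and 1162 in separate alone. SIT peaks without overlap met the exercised SIT list in 12.6% and the exercised union in 5.38% of cases with reciprocal overlap of 50%, and the exercised SIT list in 13.7% at equal numbers. Their median GC was -2.33 points from that of overlapping peaks within 300 bp of the midpoint. Promoter share was lower in SIT under every setting in which it was computed.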
